A study of Homo sapiens with 24 samples.

Results

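NEAT1 and MALAT1 are neighbouring long noncoding RNAs of human chromosome 11 that stay in the nucleus. They were taken by their Ensembl identifiers, ENSG00000245532 and ENSG00000251562, and are 2 of the 60605 genes in the deposited count tables. Their levels, and the ratio of NEAT1 to MALAT1 reads, were followed through all 24 libraries of a knockdown experiment in SBC-3, an established line of human small cell lung cancer cells. Cells were reverse-transfected with a small interfering RNA (siRNA) or an antisense oligonucleotide (ASO) at 10 nM, and poly(A)-selected RNA was sequenced after 72 h. Each of the 8 groups had 3 libraries. In the siRNA arm, siSFPQ-2 and siSFPQ-3 were directed at SFPQ, siNONO-3 and siNONO-4 were directed at NONO, and siCtrl was the control siRNA. In the ASO arm, ASO-NEAT1-1047 and ASO-NEAT1-1473 were directed at NEAT1, and ASO-Ctrl was the control oligonucleotide. All groups were of wild-type genotype and differed by label only in the reagent. The labels do not say which stretch of NEAT1 each ASO matches, nor whether replicates came from cultures of their own. The p-values below therefore rest on a spread between libraries that may be technical.

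NEAT1 is the RNA on which paraspeckles assemble, nuclear bodies that hold SFPQ, NONO and other RNA-binding proteins. It is made as a short polyadenylated transcript and as a long transcript that reads through the short one's end, and the long one is required for paraspeckles. MALAT1 lies in nuclear speckles, bodies rich in splicing factors, and is one of the most abundant nuclear RNAs of many human cells. Long NEAT1 and MALAT1 lack an ordinary poly(A) tail: RNase P cuts off a small tRNA-like RNA, and the new end is kept by a triple helix in which U-rich stretches pair with a genome-encoded A-rich tract.

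In the coordinates of the deposited files (hg38), NEAT1 lay on the plus strand at chr11:65422774-65445540 with a counted length of 22767 bases. MALAT1 followed on the same strand at chr11:65497688-65506516 with a counted length of 8829 bases, and 52147 bases separated them. In the annotation of GENCODE release 29 (GRCh38), both were classed as lincRNA, and the long NEAT1 transcript had 22743 bases. The short NEAT1 transcript spanned 3716 bases from the same start, so 83.6% of the counted length of NEAT1 lay beyond its end. The files hold 1 count per gene, so short and long NEAT1 could not be told apart. The share of each RNA's molecules that poly(A) selection captured is not known from the counts. Same-strand features annotated inside both genes, including MIR612 in NEAT1, were listed at 0 in all 24 libraries, and an antisense feature inside MALAT1 had 10 reads in all.

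The 3′ ends are shown because they set the transcripts apart: both long RNAs carry the triple-helix stretches, and the short NEAT1 transcript carries a poly(A) signal instead. Each is given 5′ to 3′ on the plus strand of GRCh38, from the GENCODE release 29 transcripts, at chr11:65445441-65445540, chr11:65506017-65506116 and chr11:65426414-65426513. Capitals mark the U-rich motifs TTTCTTTT and TTTTGCTTT and the A-rich motif AAAGCAAAA in the first pair, and the poly(A) signal AATAAA and TGTA, the DNA form of the UGUA element bound by the cleavage factor subunit NUDT21, in the last.
NEAT1 long transcript, 3-prime end: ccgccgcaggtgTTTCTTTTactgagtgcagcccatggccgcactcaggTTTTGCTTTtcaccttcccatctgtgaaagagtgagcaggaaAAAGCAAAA
MALAT1, bases before the tRNA-like RNA: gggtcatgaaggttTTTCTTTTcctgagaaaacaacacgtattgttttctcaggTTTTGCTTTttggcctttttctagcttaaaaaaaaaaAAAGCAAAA
NEAT1 short transcript, 3-prime end: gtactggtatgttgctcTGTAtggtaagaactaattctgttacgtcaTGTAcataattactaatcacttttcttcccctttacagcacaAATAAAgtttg

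Both long ends held 1 match of each of the 3 triple-helix motifs, in the same order, and ended on the A-rich one. Their longest shared run was 16 bases, and 11 of the last 20 bases were A in NEAT1 against 17 in MALAT1. Among the last 100 bases of 203677 annotated transcripts, 1.25% held TTTCTTTT, 0.212% held TTTTGCTTT and 0.276% held AAAGCAAAA. The last 2 motifs are reverse complements of each other, so each also had 1 opposite-strand match in both long ends, and TTTCTTTT had 0. Only 1 of those transcripts, the long NEAT1 transcript, held all 3 on its own strand. The MALAT1 stretch ends before the tRNA-like RNA and so is not the end of an annotated transcript. In the short NEAT1 end AATAAA was followed by 5 bases, against a match in 26.9% of all transcript ends, and TGTA matched at 2 places on either strand, against 34.4%. A match is a description of the letters and does not show how the RNA ended in these cells.

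Total counts per library ran from 4243196 to 14886353. Levels are given as CPM, counts brought to a common library size, with TMM factors that ran from 0.949 to 1.045. SFPQ RNA averaged 208 ± 47.3 CPM with siSFPQ-2 and 222 ± 27.3 CPM with siSFPQ-3, against 1223 ± 40.2 CPM with siCtrl (SD, n = 3 each). NONO RNA averaged 69.2 ± 9.3 CPM with siNONO-3 and 70.1 ± 5.06 CPM with siNONO-4, against 399 ± 14.9 CPM with siCtrl (SD, n = 3 each). The labelled cell type was set against marker genes: the neuroendocrine markers CHGA and NCAM1 reached at most 0.314 and 0.236 CPM and INSM1 had no read, while NEUROD1 ran from 0.589 to 16.3 CPM, SYP from 7.99 to 70.0 CPM and YAP1 from 293 to 513 CPM. Of 6 markers of other cell types, COL1A1 ran from 10.2 to 37.6 CPM, and PTPRC, CD68, PECAM1, KRT5 and SFTPC reached at most 1.41 CPM. The mitochondrially encoded share of counts was 9.59% to 11.6% in siSFPQ libraries, against 7.63% to 9.07% in siCtrl libraries. In the remaining groups this share reached 10.3%, in siNONO-4 replicate 3, which is inside the siSFPQ range. With mitochondrial genes left out before scaling, NEAT1 and MALAT1 rose by 1.07 and 1.41 on the log2 scale after SFPQ knockdown. Any other part of this share in the results below was not tested.

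MALAT1 had far more reads than NEAT1 in every library. Per length, as TPM (counts divided by gene length and brought to a common sum), MALAT1 averaged 941 ± 461 TPM and NEAT1 57.7 ± 25.6 TPM over all libraries (SD, n = 24). Ranked by TPM within a library, MALAT1 stood between place 22 and place 170 and NEAT1 between place 916 and place 4717. For NEAT1 the length used was the full 22767 bases. Its TPM and place would be higher if most of its reads came from the short transcript, which the counts do not show. NEAT1 took the smallest share of counts in ASO-NEAT1-1473 replicate 1, with 1961 reads or 0.0182% (95% Wilson interval 0.0174% to 0.0190%), and the largest in siSFPQ-2 replicate 3, with 7855 reads or 0.0806% (0.0788% to 0.0824%). MALAT1 took its smallest share in siNONO-3 replicate 3, with 12936 reads or 0.1213% (0.1193% to 0.1235%), and its largest in siSFPQ-2 replicate 3, with 53688 reads or 0.5508% (0.5462% to 0.5555%). Those intervals cover counting error only and are narrow beside the differences between replicates of 1 group.

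Both RNAs rose after knockdown of SFPQ. NEAT1 stood at 516, 591 and 824 CPM with siSFPQ-2 and at 506, 693 and 754 CPM with siSFPQ-3, against 268, 231 and 429 CPM with siCtrl, for replicates 1 to 3. MALAT1 stood at 3149, 3735 and 5633 CPM with siSFPQ-2 and at 4546, 4192 and 4802 CPM with siSFPQ-3, against 1436, 1398 and 2064 CPM with siCtrl. All 6 siSFPQ libraries lay above all 3 siCtrl libraries for both RNAs, and also above the other 15 libraries. How many of all genes showed such a gap, here or between other groups below, is not given. By the test described next, 70.4% of all genes tested changed after SFPQ knockdown. In siSFPQ-2, siSFPQ-3 and siCtrl alike, replicate 3 was the highest library for both RNAs. That order did not hold in the siNONO groups. Replicate 3 of siNONO-3 was the lowest of its group for both RNAs, and in siNONO-4 replicate 1 had the highest NEAT1.

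**Figure D1:**
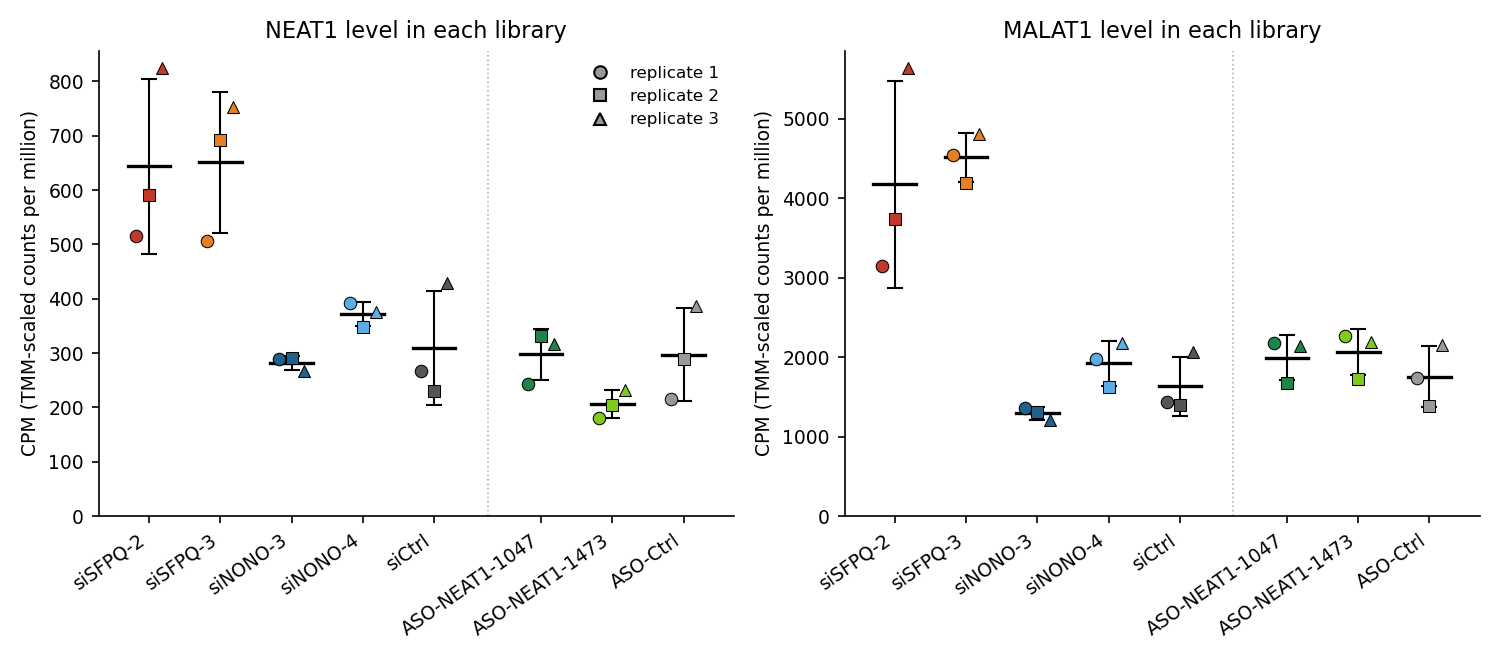
NEAT1 (left) and MALAT1 (right) levels in CPM for the 24 libraries by group, with replicate numbers as marker shapes, horizontal lines for group means and bars for SD (n = 3). The siSFPQ libraries start at 506 CPM for NEAT1 and 3149 CPM for MALAT1, above all others, whose highest values are 429 CPM and 2263 CPM.

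The test was edgeR's quasi-likelihood fit over all 24 libraries and 15869 genes, with p-values adjusted over all genes and a gene called at an adjusted p under 0.05. A fold change is given on the log2 scale, where 1 is a doubling, with its standard error (SE). Over both siSFPQ reagents NEAT1 rose by 1.06 (SE 0.21, edgeR adjusted p = 0.000261) and MALAT1 by 1.41 (SE 0.19, edgeR adjusted p = 2.18e-06). Both members were called higher, beside 34.7% of all genes tested that were called higher and 35.8% that were called lower, 70.4% in all. With siSFPQ-2 alone NEAT1 rose by 1.06 and MALAT1 by 1.35, where 32.4% of genes rose, and with siSFPQ-3 alone they rose by 1.07 and 1.47, where 33.7% of genes rose. Each of these edgeR adjusted p-values was at most 0.00088. In bulk RNA, a change in the number of cells that hold a transcript and a change in transcript per cell cannot be told apart. The rise of NEAT1 was largest, 1.36, without siCtrl replicate 3, the highest siCtrl library, and smallest, 0.90, without siCtrl replicate 2.

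The siSFPQ reagents were not told apart by either RNA. NEAT1 averaged 644 ± 161 CPM with siSFPQ-2 and 651 ± 129 CPM with siSFPQ-3 (SD, n = 3 each), and the log2 difference was -0.015 (95% interval -0.513 to 0.483, edgeR adjusted p = 0.98). MALAT1 averaged 4172 ± 1298 CPM and 4513 ± 306 CPM in the same order, with a log2 difference of -0.11 (95% interval -0.540 to 0.314, edgeR adjusted p = 0.781). Between these reagents 14.7% of all genes were called. The intervals leave room for a difference of about 0.5 on the log2 scale in either direction.

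After knockdown of NONO neither RNA was called. NEAT1 stood at 289, 290 and 267 CPM with siNONO-3 and at 393, 348 and 376 CPM with siNONO-4, inside the siCtrl values of 231 to 429 CPM. MALAT1 stood at 1365, 1309 and 1206 CPM with siNONO-3 and at 1974, 1620 and 2173 CPM with siNONO-4, against 1398 to 2064 CPM with siCtrl. All siNONO-3 libraries lay below all siCtrl libraries for MALAT1, while siNONO-4 and siCtrl overlapped. The share of all genes with such a gap is not given. MALAT1 was not called for siNONO-3 alone, where 19.9% of genes were. Over both reagents the log2 fold change was 0.065 for NEAT1 (95% interval -0.369 to 0.50, edgeR adjusted p = 0.869) and -0.05 for MALAT1 (95% interval -0.420 to 0.319, edgeR adjusted p = 0.883).

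Of all genes, 17.4% were called after NONO knockdown, 7.47% higher and 9.96% lower. With the replicate number as a block, 4262 genes were called in place of 2767, and neither NEAT1 nor MALAT1 was among them. The signs of these small values rested on single libraries: NEAT1 came to -0.025 without siCtrl replicate 1, -0.10 without siCtrl replicate 2 and 0.36 without siCtrl replicate 3, and MALAT1 to 0.14 without siCtrl replicate 3 and 0.00062 without siNONO-4 replicate 2. Without siCtrl replicate 1 the count over all genes was 1661.

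The siNONO reagents lay further from each other than either did from the control. Against siCtrl, siNONO-3 gave log2 fold changes of -0.14 for NEAT1 and -0.34 for MALAT1, and siNONO-4 gave 0.27 and 0.24. None of these 4 passed, with edgeR adjusted p-values of 0.279 to 0.747, where 19.9% of genes were called for siNONO-3 and 11% for siNONO-4. Without siCtrl replicate 3, NEAT1 came to 0.16 for siNONO-3. Set directly against siNONO-4, siNONO-3 had a log2 difference of -0.57 for MALAT1 (SE 0.20, 95% interval -1.001 to -0.142, edgeR adjusted p = 0.0894), where 10% of genes were called. NEAT1 differed by -0.40 (SE 0.24, edgeR adjusted p = 0.335).

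The replicate numbers pair the libraries among siNONO-3, siNONO-4 and siCtrl, and with the replicate number as a block the MALAT1 difference was -0.55 and passed (edgeR adjusted p = 0.0209). It also passed with DESeq2, at -0.58 (adjusted p = 0.0206), and in edgeR without siSFPQ-2 replicate 3, a library outside the comparison (adjusted p = 0.0389), and ran from -0.69 to -0.48 with single libraries left out. In same-numbered libraries MALAT1 with siNONO-3 was 69.2%, 80.8% and 55.5% of its level with siNONO-4, and NEAT1 was 73.6%, 83.3% and 70.9%. Both RNAs were thus lower with siNONO-3 at every number. The summed level of the markers of other cell types was 16.8 to 20.3 CPM with siNONO-3 and 28.5 to 37.7 CPM with siNONO-4, nearly all of it COL1A1, with PTPRC, CD68, KRT5 and SFTPC at or near 0. Its part in the difference was not tested.

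The responses to SFPQ and NONO loss differed for both RNAs. Directly compared, the 6 siSFPQ libraries exceeded the 6 siNONO libraries by 1.00 on the log2 scale for NEAT1 (SE 0.17, edgeR adjusted p = 3.55e-05) and by 1.46 for MALAT1 (SE 0.15, edgeR adjusted p = 3.64e-08). Here 75.4% of all genes were called, and 37% of all genes were called higher with siSFPQ. The lowest siSFPQ library had 506 CPM of NEAT1 against 393 CPM in the highest siNONO library, and 3149 CPM of MALAT1 against 2173 CPM. Both target effects were taken against the same siCtrl libraries, which drop out of this direct comparison.

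**Figure D2:**
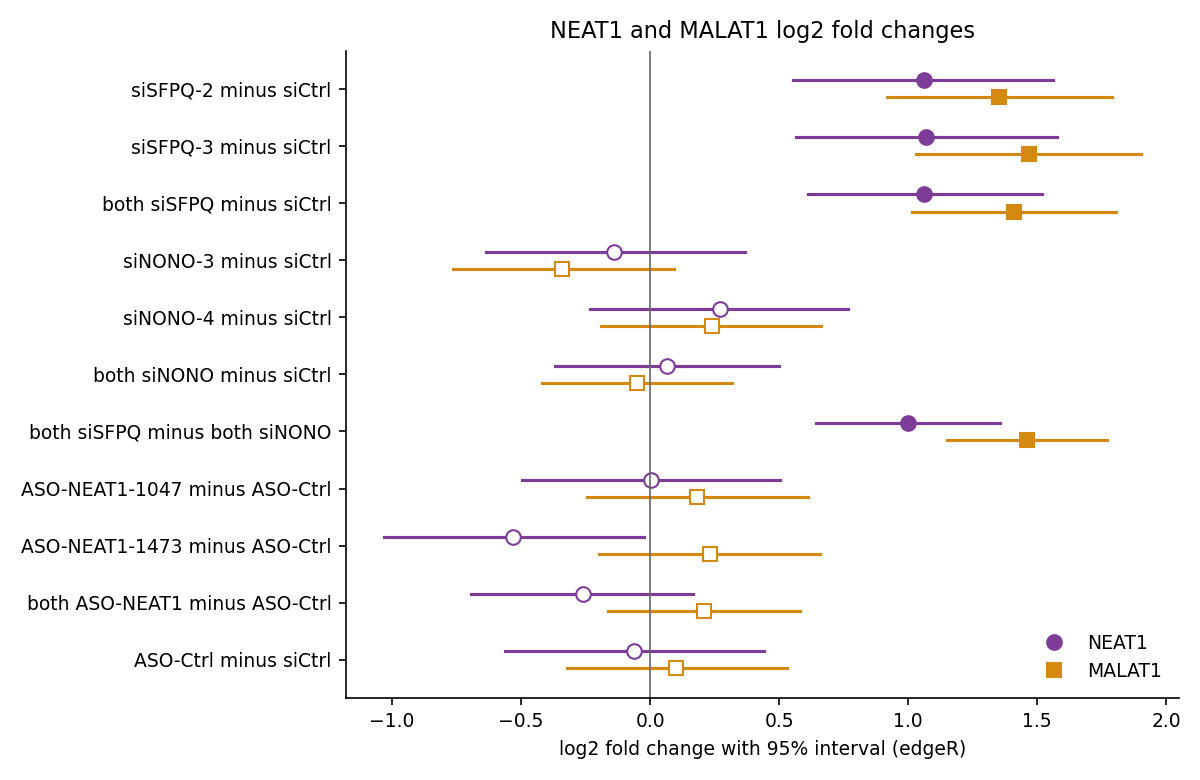
Log2 fold changes of NEAT1 (circles) and MALAT1 (squares) with 95% intervals from edgeR, for each reagent, each target and the control groups; filled symbols passed an adjusted p of 0.05. NEAT1 and MALAT1 pass in the siSFPQ comparisons and in siSFPQ against siNONO, at 1.00 to 1.47, and in none of the others shown.

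In the ASO arm NEAT1 was itself the target. NEAT1 stood at 244, 331 and 317 CPM in the libraries labelled ASO-NEAT1-1047 and at 181, 204 and 232 CPM in those labelled ASO-NEAT1-1473, against 216, 289 and 387 CPM with ASO-Ctrl, for replicates 1 to 3. Each library labelled ASO-NEAT1-1473 was below the ASO-Ctrl library of the same number, at 83.9%, 70.8% and 60% of it, but the groups overlapped. The libraries labelled ASO-NEAT1-1047 were at 113%, 115% and 82.1% of the same-numbered ASO-Ctrl library and lay inside its range. Over both ASOs the log2 fold change of NEAT1 was -0.26 (SE 0.20, 95% interval -0.693 to 0.167, edgeR adjusted p = 1). Without ASO-Ctrl replicate 1 it was -0.45, and leaving out replicate 3 of that group gave -0.032. Of all genes, 0% were called by edgeR and 0 by DESeq2, with 353 genes at an unadjusted p under 0.05, and without ASO-Ctrl replicate 3 the edgeR count was 19.

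MALAT1, the neighbour that the ASOs did not name, stood at 2173, 1673 and 2136 CPM in the libraries labelled ASO-NEAT1-1047 and at 2263, 1727 and 2186 CPM in those labelled ASO-NEAT1-1473, against 1734, 1380 and 2149 CPM with ASO-Ctrl. Replicate 2 was the lowest library of all 3 groups, and the groups overlapped. Its log2 fold change over both ASOs was 0.21 (SE 0.18, 95% interval -0.165 to 0.581, edgeR adjusted p = 1). With ASO-NEAT1-1473 alone, NEAT1 had -0.53 (95% interval -1.031 to -0.025) and MALAT1 0.23 (95% interval -0.197 to 0.659), and with ASO-NEAT1-1047 alone NEAT1 had 0.0028 and MALAT1 0.18. For each ASO alone 0% of genes were called by edgeR, with 424 genes at an unadjusted p under 0.05 for ASO-NEAT1-1473 and 365 for ASO-NEAT1-1047.

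Set against each other, ASO-NEAT1-1047 exceeded ASO-NEAT1-1473 in NEAT1 by 0.53 on the log2 scale (95% interval 0.028 to 1.034, edgeR adjusted p = 1). NEAT1 was 135%, 162% and 137% of the same-numbered ASO-NEAT1-1473 library, so the direction held at each number, while the 0% of genes called by edgeR between the ASOs (505 at an unadjusted p under 0.05) include neither RNA. MALAT1 was 96%, 96.9% and 97.7%, a log2 difference of -0.046 (95% interval -0.474 to 0.381). The controls of the arms were close for both RNAs. ASO-Ctrl averaged 297 ± 85.8 CPM of NEAT1 and 1754 ± 385 CPM of MALAT1, against 309 ± 106 CPM and 1633 ± 374 CPM with siCtrl (SD, n = 3 each). The log2 differences, -0.061 and 0.10, were not called, where 0.454% of genes were, and the 95% intervals reached -0.561 and 0.531.

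By mean level the groups ran, for NEAT1, in the order siSFPQ-3, siSFPQ-2, siNONO-4, siCtrl, ASO-NEAT1-1047, ASO-Ctrl, siNONO-3 and ASO-NEAT1-1473. Neighbours in that order overlapped library by library except at the step below siSFPQ-2 and at the last step, where siNONO-3 averaged 282 ± 13.3 CPM and ASO-NEAT1-1473 206 ± 25.4 CPM. For MALAT1 the order was siSFPQ-3, siSFPQ-2, ASO-NEAT1-1473, ASO-NEAT1-1047, siNONO-4, ASO-Ctrl, siCtrl and siNONO-3. Again only the step below siSFPQ-2 and the last one had no overlap, the last with siNONO-3 at 1294 ± 80.8 CPM. The lowest group thus differed between the RNAs.

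The NEAT1 to MALAT1 ratio, the NEAT1 count over the MALAT1 count in the same library, needs no scaling between libraries. It was 0.164, 0.158 and 0.146 with siSFPQ-2 and 0.111, 0.165 and 0.157 with siSFPQ-3, against 0.186, 0.165 and 0.208 with siCtrl, for replicates 1 to 3. With siNONO-3 it was 0.212, 0.222 and 0.221 and with siNONO-4 0.199, 0.215 and 0.173. By group mean the ratio was lowest in the libraries labelled ASO-NEAT1-1473, at 0.080, 0.118 and 0.106, and it was 0.112, 0.198 and 0.149 in those labelled ASO-NEAT1-1047, against 0.124, 0.209 and 0.180 with ASO-Ctrl. So siSFPQ-3 replicate 1 stood below the other siSFPQ libraries, siNONO-3 libraries lay above all siCtrl libraries, and all libraries labelled ASO-NEAT1-1473 lay below all ASO-Ctrl libraries.

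**Figure D3:**
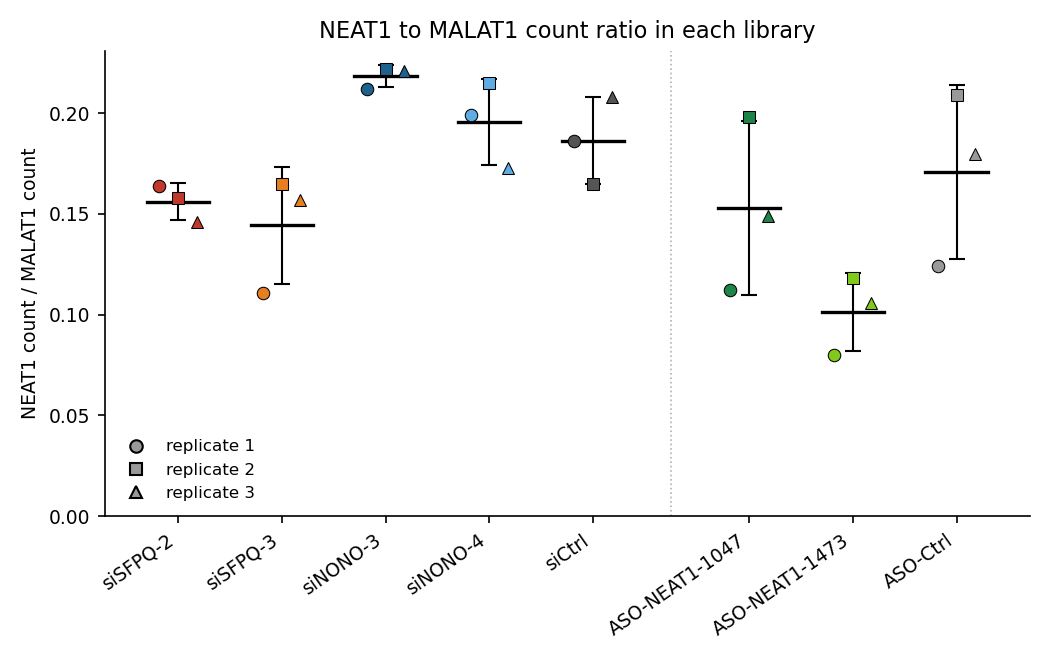
NEAT1 count divided by MALAT1 count in each of the 24 libraries by group, with replicate numbers as marker shapes, horizontal lines for group means and bars for SD (n = 3). The siNONO libraries (0.173 to 0.222) lie above all siSFPQ libraries (0.111 to 0.165), and the libraries labelled ASO-NEAT1-1473 (0.080 to 0.118) lie below ASO-Ctrl (0.124 to 0.209).

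The ratio was tested on the log2 scale with exact 2-sided permutation tests over libraries, adjusted over 8 comparisons. The 6 siSFPQ libraries averaged -2.75 and the 6 siNONO libraries -2.28, a difference of -0.47 (SE 0.1, n = 6 each) with an exact p of 0.00216, the smallest that 924 splits allow, and an adjusted p of 0.0173. With splits kept within replicate numbers the exact permutation p was 0.00926, the smallest that 216 splits allow. Adjusted over 8 comparisons that floor is 0.0741, so this form of the test could not pass at 0.05. All 6 siSFPQ libraries were below all 6 siNONO libraries. Against the 3 siCtrl libraries, the siSFPQ mean differed by -0.32 (SE 0.13, exact permutation p = 0.0476, adjusted 0.19), with 5 of 6 siSFPQ libraries below all siCtrl libraries. The siNONO mean differed by 0.15 (SE 0.11, exact permutation p = 0.226, adjusted 0.302). The rise of MALAT1 after SFPQ knockdown was therefore not shown to exceed that of NEAT1 once all comparisons were counted.

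For both NEAT1 ASOs against ASO-Ctrl the ratio differed by -0.45 (SE 0.29, exact permutation p = 0.167, adjusted 0.302). The replicate numbers pair the libraries in this arm, and splits within numbers gave an exact p of 0.0741. Of the single reagents, added after the ratios had been seen, ASO-NEAT1-1473 had the largest difference, -0.74 or a ratio 0.599 times that of ASO-Ctrl. Its same-numbered values were 0.643, 0.566 and 0.59 times those of ASO-Ctrl, a spread of 0.09 (SD of the log2 differences), while the same values for ASO-NEAT1-1047 were 0.901, 0.945 and 0.825. The exact permutation p for ASO-NEAT1-1473 was 0.1, the smallest that 3 against 3 allow, and 0.28 adjusted over 14 comparisons. The other 5 reagents had differences of -0.38 to 0.23 from their controls, with adjusted exact permutation p-values of 0.28 to 0.7. Between the ASOs the ratio differed by 0.57 (exact permutation p = 0.2, adjusted 0.302). The pairs siSFPQ-2 and siSFPQ-3, siNONO-3 and siNONO-4, and ASO-Ctrl and siCtrl differed by 0.13, 0.16 and -0.15, with adjusted exact permutation p-values of 0.302 to 0.8. Without siSFPQ-3 replicate 1 the first of these was -0.05, and without ASO-Ctrl replicate 1 the last was 0.06.

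Replicates of 1 group spread widely for both RNAs. The SD of log2 CPM within groups was 0.298 for NEAT1 and 0.26 for MALAT1, where the median was 0.108 over the 2325 genes with at least 100 CPM. The SD of NEAT1 exceeded that of 98.2% of those genes and the SD of MALAT1 exceeded 96.8%. As a percentage of the group mean, the SD of NEAT1 was smallest with siNONO-3 (4.72%) and largest with siCtrl (34.2%) among the 8 groups. For MALAT1 it was smallest with siSFPQ-3 and siNONO-3 among the 8 groups, at 6.79% and 6.25% of the mean, and largest with siSFPQ-2, at 31.1%.

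Deviations of single libraries from their group means were compared between the RNAs. In the siRNA arm Pearson's r was 0.81 (permutation p = 0.0106, n = 15) and Spearman's rho 0.77 (permutation p = 0.0177), and r was 0.74 without the libraries farthest from the median of NEAT1, siCtrl replicates 3 and 2. In the ASO arm r was 0.13 (permutation p = 0.852, n = 9) and rho 0.13, and r was -0.34 without ASO-Ctrl replicates 1 and 3. Over both arms r was 0.56 (permutation p = 0.0548, n = 24), rho 0.48 (permutation p = 0.0705) and r 0.53 without the farthest pair. Adjusted over these 3 relations, the permutation p-values of r were 0.0318 in the siRNA arm, 0.852 in the ASO arm and 0.0822 over both, and those of rho were 0.0531, 0.829 and 0.106. Whether the arms differed was not tested. Both deviations share a library's scaling factor and the total behind it. The permutations also exchanged values in each group separately, as if libraries of different groups were independent. Same-numbered libraries of several groups deviated together over all genes, so these p-values may be too small.

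**Figure D4:**
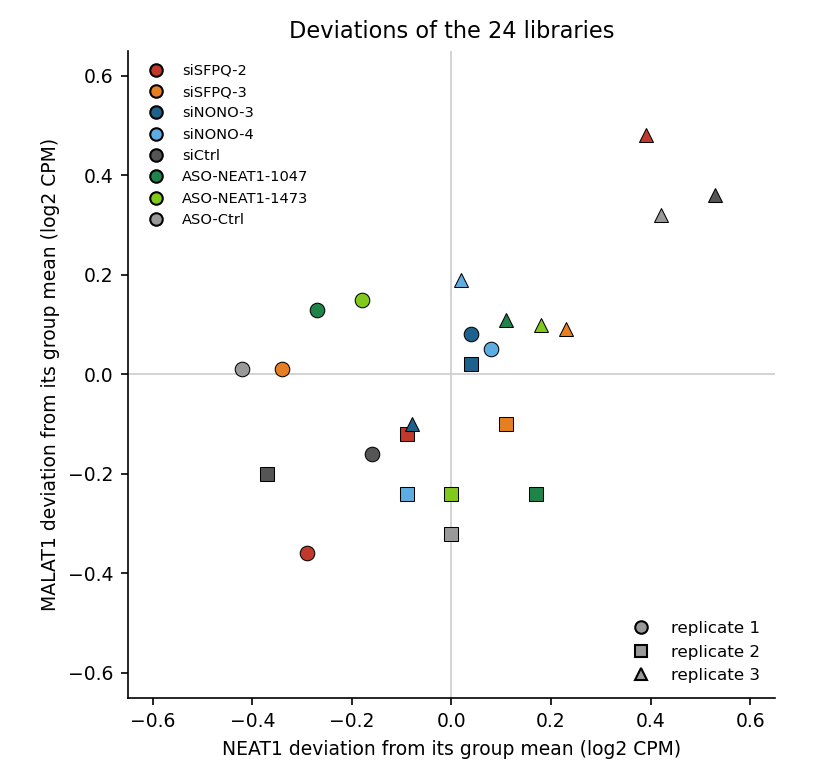
Deviation of each library from its group mean in log2 CPM, NEAT1 on the x axis and MALAT1 on the y axis, coloured by group with replicate numbers as marker shapes. In the siRNA arm the points follow a rising trend (r = 0.81), with siCtrl replicate 3 at 0.53 and 0.36, while the ASO-arm points do not (r = 0.13).

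The ASO arm showed another order. Replicate 1 held the lowest NEAT1 of each group, at -0.27 in ASO-NEAT1-1047, -0.18 in ASO-NEAT1-1473 and -0.42 in ASO-Ctrl. Replicate 2 held the lowest MALAT1 of each group, at -0.24, -0.24 and -0.32 in the same order. So the lowest replicate number was the same in treated and control groups of this arm, and it differed between the RNAs. An effect of the replicate number on either RNA was not tested.

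Other genes of the bodies and processes in which both RNAs take part were counted from fixed lists, beside the background shares above. Those were 34.7% of all genes higher and 35.8% lower after SFPQ knockdown, and 7.47% higher and 9.96% lower after NONO knockdown. Of 34 paraspeckle proteins, which include SFPQ and NONO themselves, 8 rose and 15 fell after SFPQ knockdown, with a median log2 fold change of -0.15, against -0.02 for all genes. AHDC1, a DNA-binding protein, rose by 1.40 and PSPC1, a relative of SFPQ and NONO, by 0.68, while the targeted SFPQ fell by 2.51 and ZC3H6, a zinc finger protein, by 1.37. After NONO knockdown 5 rose, led by PSPC1 at 0.71 and ZNF335 at 0.48, and 2 fell, the targeted NONO at -2.52 and RBM3, a cold-inducible RNA-binding protein, at -0.39. Of 24 nuclear speckle proteins, 6 rose and 13 fell after SFPQ knockdown (median -0.30). The kinases DYRK1A and CLK4, which phosphorylate splicing factors, rose by 1.41 and 0.64, and the splicing factors SRSF1 and SRSF2 fell by 0.94 and 0.61. After NONO knockdown 1 rose, DYRK1A at 0.24, and 2 fell, SRSF11 at -0.26 and SRSF7 at -0.25.

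The list of factors that form or protect the 3′ ends of NEAT1 and MALAT1 held RNase P subunits, cleavage factors, HNRNPK, METTL16 and Integrator subunits. Of its 19 members tested, of 20, none rose and 11 fell after SFPQ knockdown (median -0.25, against -0.02 for all genes), where 35.8% of all genes fell. The largest falls were those of the RNase P subunits POP5, at -2.14, and RPP40, at -1.19, which overlaps the antisense gene LYRM4-AS1. After NONO knockdown 1 rose, the RNase P subunit RPP38 at 0.34 (edgeR adjusted p = 0.03), and none fell. The shares of all genes there were 7.47% and 9.96%. RPP38 overlaps NMT2 on the other strand.

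Of 11 transcription factors reported to act on NEAT1 in other cells, 7 rose and 3 fell after SFPQ knockdown (median 0.93). For all genes tested the median was -0.02, with 34.7% higher and 35.8% lower. EPAS1, a hypoxia-inducible factor, rose by 3.10 and RUNX1, a factor of blood development, by 2.14, while MYC and E2F1, which drive growth and the cell cycle, fell by 1.41 and 1.26. After NONO knockdown 4 rose and none fell, led by EPAS1 at 0.81 and RELA, a subunit of NF-kB, at 0.46. In that comparison 7.47% of all genes rose and 9.96% fell. NEAT1 itself rose after SFPQ knockdown and was not called after NONO knockdown. Any part of these factors in its level was not tested.

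Of 38 other long noncoding RNAs, 35 were tested, and 14 rose and 16 fell after SFPQ knockdown (median -0.02, the same as for all genes). Among all genes tested, 34.7% rose and 35.8% fell in that comparison. PURPL, a regulator of p53, rose by 3.15 and MIAT, another nuclear RNA, by 2.73. Both were low with siCtrl, at 0.469 and 1.36 CPM, and MIAT (686 reads in all) overlaps MIATNB (1197 reads) on the same strand. The imprinted RNA H19 fell by 2.59 and MIR17HG, a microRNA host, by 1.92. NEAT1 and MALAT1 thus moved with some long noncoding RNAs and against others. After NONO knockdown 12 rose and 2 fell (median 0.13, against -0.004 for all genes), where 7.47% of all genes rose and 9.96% fell. PURPL rose by 2.24 and PVT1 by 1.14, while FTX, an RNA of the X inactivation region that overlaps JPX, fell by 0.77 and CRNDE by 0.69. In the ASO comparison none of the members of the 5 lists was called by edgeR or DESeq2.

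The genes around the pair were read next. Within 250 kb on either side of the NEAT1 to MALAT1 interval lay 47 annotated genes, of which 21 were tested, NEAT1 and MALAT1 included. Of the other 19, 8 rose and 5 fell after SFPQ knockdown, with a median log2 fold change of 0.34, a called share close to the 70.4% of all genes. The nearest tested gene before NEAT1, FRMD8, a partner of the sheddase regulator iRhom, rose by 0.83 (SE 0.10, edgeR adjusted p = 3.38e-08).

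Further out DPF2, EHBP1L1 and RELA rose by 0.82, 0.97 and 0.93, while POLA2, a subunit of the DNA polymerase alpha complex, and RNASEH2C, a subunit of RNase H2, fell by 1.56 and 1.23. The highest value, 3.82, belonged to ENSG00000285816, a feature of 132 reads in all 24 libraries that overlaps POLA2 on the same strand. That feature averaged 0.108 CPM with siCtrl, near the floor. Apart from it, MALAT1 had the largest rise of the window, at 1.41, followed by LTBP3 at 1.20 and NEAT1 at 1.06. So rises and falls both stood within the window, and the rises of NEAT1 and MALAT1 were not shared by all neighbours. After NONO knockdown 1 of the 19 was called, RELA at 0.46, where 17.4% of all genes were called. After the NEAT1 ASOs 0 were called by edgeR.

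**Figure D5:**
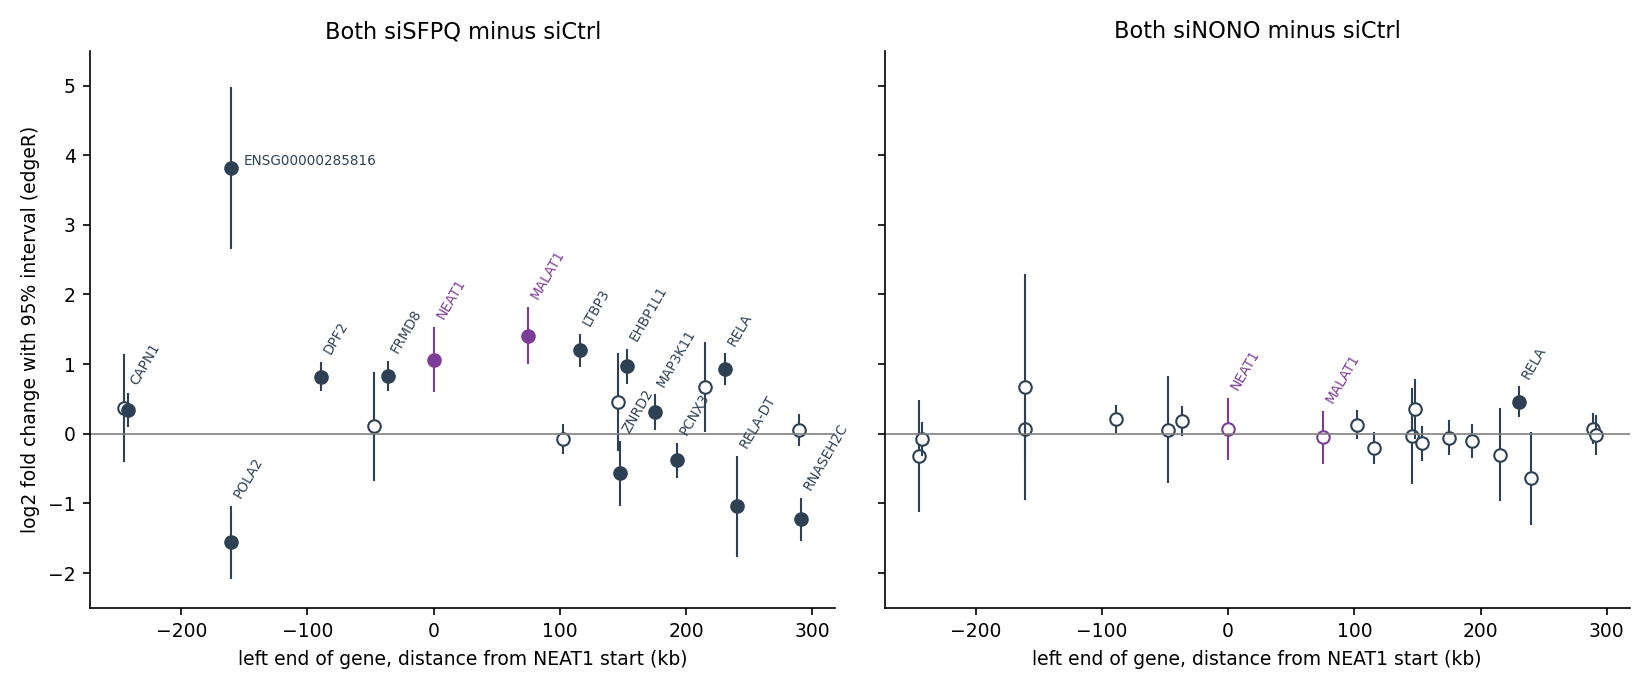
Log2 fold changes with 95% intervals of the 21 tested genes around NEAT1 and MALAT1 against distance from the NEAT1 start in kb, after SFPQ knockdown (left panel) and NONO knockdown (right panel), with filled symbols for called genes. NEAT1 (1.06) and MALAT1 (1.41) stand among neighbours that rose and fell after SFPQ knockdown, whereas RELA (0.46) is the gene filled after NONO knockdown.

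Likeness in pattern was measured as Pearson's r of log2 CPM over the 24 libraries, among 10363 genes of at least 5 CPM, as a description. The genes most like NEAT1 were ATG13 (0.923), MAFF (0.907), SGPL1 (0.905), CEACAM19 (0.905) and MEF2D (0.904). Those most like MALAT1 were ZNF529 (0.975), RIMKLB (0.96), IQCN (0.953), GGCX (0.947) and ZNF605 (0.946). All 10 rose after SFPQ knockdown, by 0.61 (ZNF605) to 2.58 (IQCN), so the siSFPQ libraries carry much of each r. Over the 18 libraries without siSFPQ, r was 0.707 for NEAT1 and ATG13 and 0.848 for MALAT1 and ZNF529. All but SGPL1 and IQCN overlap other counted genes, and GGCX and MAFF overlap MAT2A and PLA2G6 on the other strand.

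In this ranking NEAT1 and MALAT1 were not each other's nearest match. MALAT1 stood at place 773 in the ranking for NEAT1, and NEAT1 at place 1399 in the ranking for MALAT1. Over the 18 libraries without siSFPQ, their r was 0.126. The siSFPQ libraries stood apart from the rest for both RNAs, so the places, like the r values over 24 libraries, rest largely on that step and are given as a description.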

How the data were processed

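The authors deposited raw whole-number counts per Ensembl gene, 1 table for each of 24 libraries of poly(A)-selected SBC-3 RNA prepared with the KAPA RNA HyperPrep Kit, per the labels' protocols. The submitters' processing notes list hg38 and, in no stated order, DESeq2 1.38.1, STAR 2.7.5a, cutadapt 4.2 and Subread 2.0.3, and featureCounts made the tables, per the file headers. The strand setting, multi-mapping rule and annotation release were not given in the sources used here, so overlapping and antisense genes are uncertain.

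From these counts, edgeR 4.0.16 in R 4.3.3 (TMM, expression filter by group, robust quasi-likelihood fit) was run once over all 24 libraries and 15869 genes, with Benjamini-Hochberg adjustment at 0.05. The SE is the log2 fold change over the root of its F. The procedure was tested on simulated data. For each target, both reagents' averaged log2 level was set against siCtrl or ASO-Ctrl. Ratios of counts were compared by exact permutation tests (single reagents were added after seeing the data), and deviations by 100000 permutations within groups. Alternatives were other scaling factors, no filter, DESeq2 1.42.0, 1 arm alone, a replicate block and each library left out.

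Same-numbered libraries deviated together over all genes, with every correlation above 0.1, among siNONO-3, siNONO-4 and siCtrl, among the ASO groups and between siSFPQ-2 and siCtrl, but not between siSFPQ-2 and siSFPQ-3 or siSFPQ-3 and siCtrl. No replicates looked like 1 library deposited more than once. Named genes were the members, SFPQ and NONO, tested genes within 250 kb, the 5 most like each member, and from every list at most 2 called members per direction and target, and some of these are not reported here. Members, lists and tests were chosen with earlier results of these data known. The 3′ end sequences come from GENCODE release 29.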

Additional observations from a re-analysis of the deposited data

Results flagged for a closer look

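The NEAT1 to MALAT1 ratio in siSFPQ-3 replicate 1, at 0.111, stood apart from the other 5 siSFPQ libraries, at 0.146 to 0.165. On the log2 scale its gap to the nearest of them was 0.692 of the range of all 6. Of 9 such checks, over NEAT1, MALAT1 and their ratio in the libraries of each target, it was the 1 to stand out, and chance alone marks about 1 in 20 groups. Its NEAT1 level, 506 CPM, was the lowest of the siSFPQ libraries, while its MALAT1 level, 4546 CPM, was within their range.

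The response to SFPQ loss differed from that to NONO loss, tested directly, by 1.00 on the log2 scale for NEAT1, by 1.46 for MALAT1 and by -0.47 for the log2 ratio. Without siSFPQ-3 replicate 1 the ratio difference was -0.38.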

How the results depend on the processing

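The rises of NEAT1 and MALAT1 after SFPQ knockdown were called under all 8 alternatives of the fit, at 1.0 to 1.1 and 1.35 to 1.44 on the log2 scale, and with any 1 library left out, at 0.90 to 1.36 and 1.26 to 1.6. Their difference between siSFPQ and siNONO was likewise called throughout, at 0.88 to 1.06 and 1.32 to 1.53 with 1 library left out. NEAT1 and MALAT1 were called in no alternative after NONO knockdown or in the ASO comparison, with left-out ranges of -0.10 to 0.36 and -0.15 to 0.14 for NONO and -0.45 to -0.032 and 0.06 to 0.38 for the ASOs.

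With the replicate number as a block the NONO comparison called 4262 genes in place of 2767. The MALAT1 difference between siNONO-3 and siNONO-4 was then -0.55 and passed. The ratio difference between siSFPQ and siNONO, -0.47, had an adjusted exact permutation p of 0.0741. That is the smallest possible with splits within replicate numbers, so it could not pass. In the siSFPQ arm the numbers paired siSFPQ-2 with siCtrl but not siSFPQ-3 with either. The block changed no other call. DESeq2 also called that MALAT1 difference, at -0.58, and so did edgeR without siSFPQ-2 replicate 3. Without a filter on low counts the ASO comparison called 3 genes. The correlation of deviations passed its permutation test, which takes no account of replicate numbers, at 0.58 with total counts only. It also passed at 0.81 in the siRNA arm alone. Values near 0 changed sign: NEAT1 between siSFPQ-2 and siSFPQ-3 was 0.029 with upper quartile factors and 0.0027 with total counts, and NEAT1 with ASO-NEAT1-1047 was -0.014 with RLE factors, -0.0066 without mitochondrial genes, -0.0097 without a filter and -0.016 with DESeq2. The cause was not tested.

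Leaving out single libraries moved the genes called after SFPQ knockdown between 10742 and 11574, after NONO knockdown between 1661 and 2933 and in the ASO comparison between 0 and 19. For ASO-Ctrl minus siCtrl it moved NEAT1 between -0.27 and 0.25 and MALAT1 between -0.05 and 0.30. For siSFPQ-2 minus siSFPQ-3 the ranges were -0.23 to 0.12 and -0.38 to 0.053, for siNONO-3 minus siNONO-4 -0.45 to -0.36 and -0.69 to -0.48, and for ASO-NEAT1-1047 minus ASO-NEAT1-1473 0.44 to 0.64 and -0.16 to 0.066. NEAT1 ran from -0.31 to 0.16 with siNONO-3 and from -0.19 to 0.23 with ASO-NEAT1-1047. The log2 ratio ran from -0.40 to -0.23 for SFPQ, 0.07 to 0.23 for NONO, -0.67 to -0.29 for the ASOs, -0.52 to -0.38 for siSFPQ minus siNONO, -0.31 to 0.06 for the controls, -0.05 to 0.24 between the siSFPQ reagents, 0.08 to 0.23 between the siNONO reagents and 0.37 to 0.78 between the ASOs. With 3 libraries a group, NEAT1 intervals were about 0.5 wide on either side, which limits what could be told apart.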
